A study of Mus musculus with 74 samples.

Results

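Mouse placental prolactins, pregnancy-specific glycoproteins (Psg) and placental cathepsins are multigene families that arose by local duplication, and their copies still lie side by side. The members described here are the autosomal protein-coding genes whose symbol is Prl or Psg followed by a digit, together with Ctsj, Ctsm, Ctsq, Ctsr, Cts3, Cts6, Cts7 and Cts8. The rule found 46 of 20807 autosomal protein-coding genes in the GENCODE vM21 annotation of mm10, namely 25 Prl, 13 Psg and 8 cathepsin genes. Members of a family no more than 1 Mb apart on a chromosome were taken as a cluster, from the first annotated base to the last. This gave 5 clusters. The large Prl cluster (chr13:27094190-28151611) holds 22 genes and the Prl2c cluster (chr13:12790816-13191923) holds 3. The large Psg cluster (chr7:18345422-18821607) holds 11 genes, a separate pair of Psg16 and Psg29 lies at chr7:17074040-17215760, and the cathepsin cluster (chr13:61000179-61570127) holds 8.

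Trophoblast, the placental lineage that descends from the trophectoderm (TE) of the blastocyst, is where these families are best known to be used. Prl genes encode secreted hormones related to pituitary prolactin, Psg genes encode secreted glycoproteins of the immunoglobulin superfamily related to Ceacam proteins, and the placental cathepsins are rodent cysteine proteases related to cathepsin L. H3K9me3, trimethylation of lysine 9 on histone H3, marks heterochromatin and is known for silencing repeats and tandem gene families.

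H3K9me3 was mapped by ultra-low-input native ChIP-seq in donor cumulus cells (CC), in embryos cloned through somatic cell nuclear transfer (SCNT), and in zygotes from fertilization at pronuclear stage 5 (PN5). CC and recipient oocytes came from B6D2F1 females aged 8 to 10 weeks, and SCNT embryos were collected at 6 and 14 h post activation (hpa), at the 2-cell, 4-cell, 8-cell and morula stages, and as the inner cell mass (ICM) and TE of blastocysts, which were parted by micromanipulation. Fertilized embryos in the study came from C57BL/6j parents. The study's methods take the PN5 data from an earlier publication, although the labels list PN5 libraries beside the others without saying so, and origin, strain and study cannot be told apart in any comparison with PN5. The SCNT embryos carry no other label of treatment or genotype, and ICM and TE of fertilized embryos were not analysed here.

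The authors merged 2 to 7 precipitated libraries per group, drew the same number of reads from each and called 1 list of broad peaks per group, so the data are 10 lists of 120201 to 200344 peaks with no replicate error and no test. Peaks covered 5.12% to 8.86% of the autosomes. A coverage below is the percent of bases under merged peaks. Its Wilson 95% interval counts each 1 kb as 1 unit and covers counting error only, and neighbouring kilobases are not independent. Where no peak was called, H3K9me3 stayed under the detection threshold, which does not prove its absence. Expression was not analysed here.

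The members showed 3 main patterns of H3K9me3. The gene bodies of the large Prl cluster were nearly free of peaks in every list, with at most 2.09% of their bases covered. Most Psg genes were covered in CC and many also in SCNT embryos up to the morula. The cathepsins and the 3 genes of the Prl2c cluster had their highest coverage in CC, with Prl2c2 and Prl2c3 covered also at 14 hpa. A gene is called covered below when peaks lie over at least 50% of its body. In CC, 19 of the 46 members were covered, beside 4.11% of all autosomal protein-coding genes. They were 9 genes of the large Psg cluster, Psg29, 7 of the 8 cathepsins, Prl2c2 and Prl2c3. The median coverage over the 46 members was 21.7% in CC, beside a median of 0 over all genes.

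**Figure D1:**
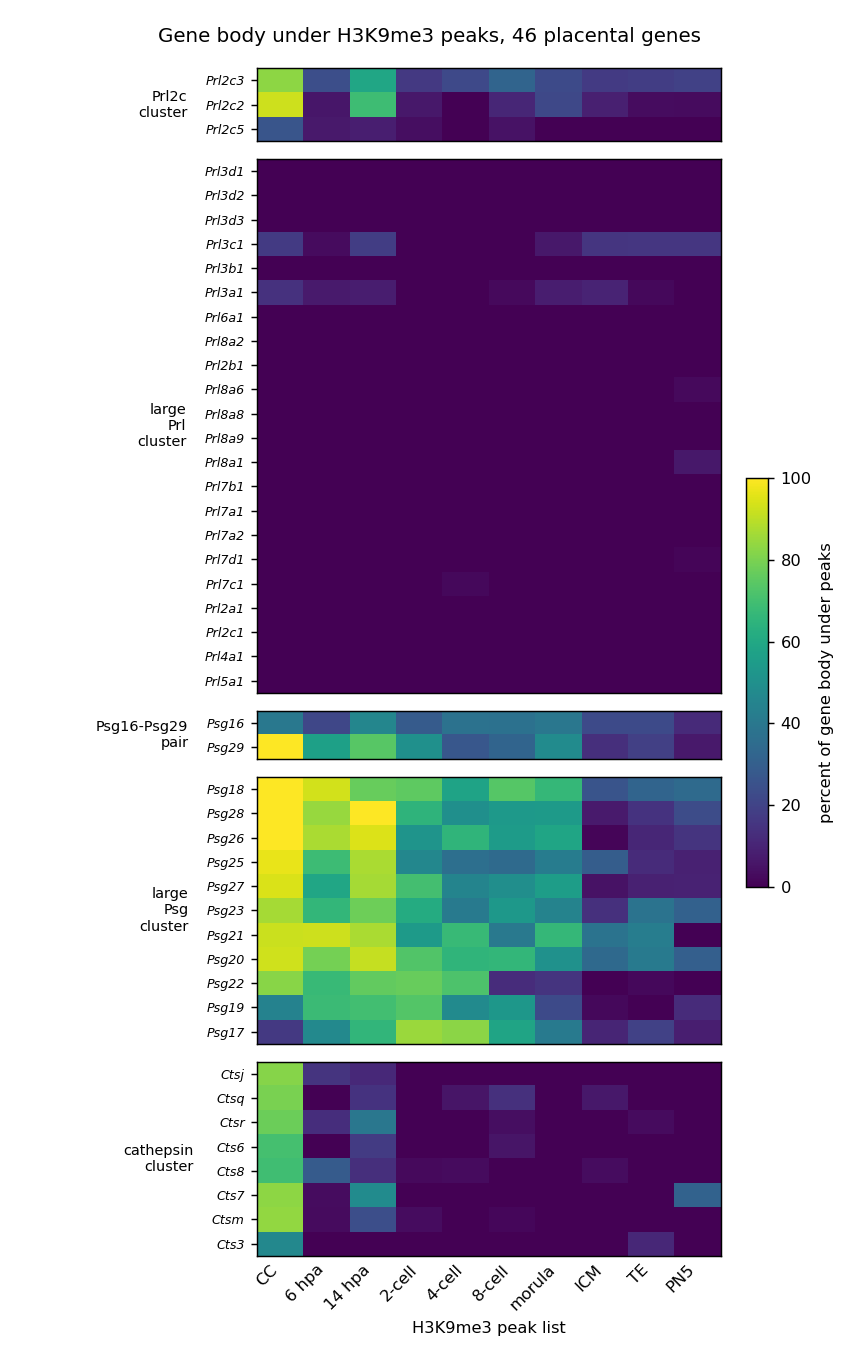
Percent of each gene body under H3K9me3 peaks, with the 46 genes as rows in chromosomal order within 5 clusters and the 10 peak lists as columns. Of the 13 Psg rows 10 to 12 reach 50% from CC to the 2-cell stage and 6 or 7 from the 4-cell stage to the morula, cathepsin rows reach it in CC alone, and 16 of the 22 rows of the large Prl cluster hold no peak in any list.

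The number of covered members was lower in every later list. At 6 hpa 11 members were covered (3.29% of all genes), at 14 hpa 14 (2.9%), and in 2-cell embryos 11 (1.62%). At the 4-cell stage there were 6 (2.08%), in 8-cell embryos 7 (2.09%) and in the morula 6 (1.52%). From 6 hpa on, every covered member was a Psg gene, except that Prl2c2 and Prl2c3 were covered again at 14 hpa. ICM, TE and PN5 had 0 covered members, where 0.952%, 0.788% and 1.99% of all genes were covered. A count of 0 there is near the background. In lists of equal covered length the counts were 13 in CC, 11 at 6 hpa, 6 at 14 hpa, 11 in 2-cell embryos, and 3, 4 and 2 in the next 3 lists, so that 14 hpa lay below 6 hpa.

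Coverage of whole clusters, introns and sequence between genes included, matched these patterns only in part. The Prl2c cluster stood near the cathepsin cluster at 6 hpa (20.6% and 15%). At 14 hpa it stood near the large Psg cluster (58.9% and 59.1%, cathepsins 30.4%), as in ICM (25.9% and 22.7%, cathepsins 11.1%). The large Prl cluster ranged from 3% (6 hpa) to 7.76% (morula), beside 5.77% and 7.86% of all autosomes. In CC peaks covered 82.6% of the Prl2c cluster (95% interval 78.5 to 85.9), 78.5% of the large Psg cluster (74.7 to 82), 70.6% of the cathepsin cluster (66.7 to 74.1) and 68.5% of the Psg16 and Psg29 pair (60.3 to 75.4). The large Prl cluster had 6.11% (4.85 to 7.76), below the 8.86% of all autosomes. These values divide the 5 clusters into 4 that were mostly under peaks in the donor cell and 1 that was not.

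**Figure D2:**
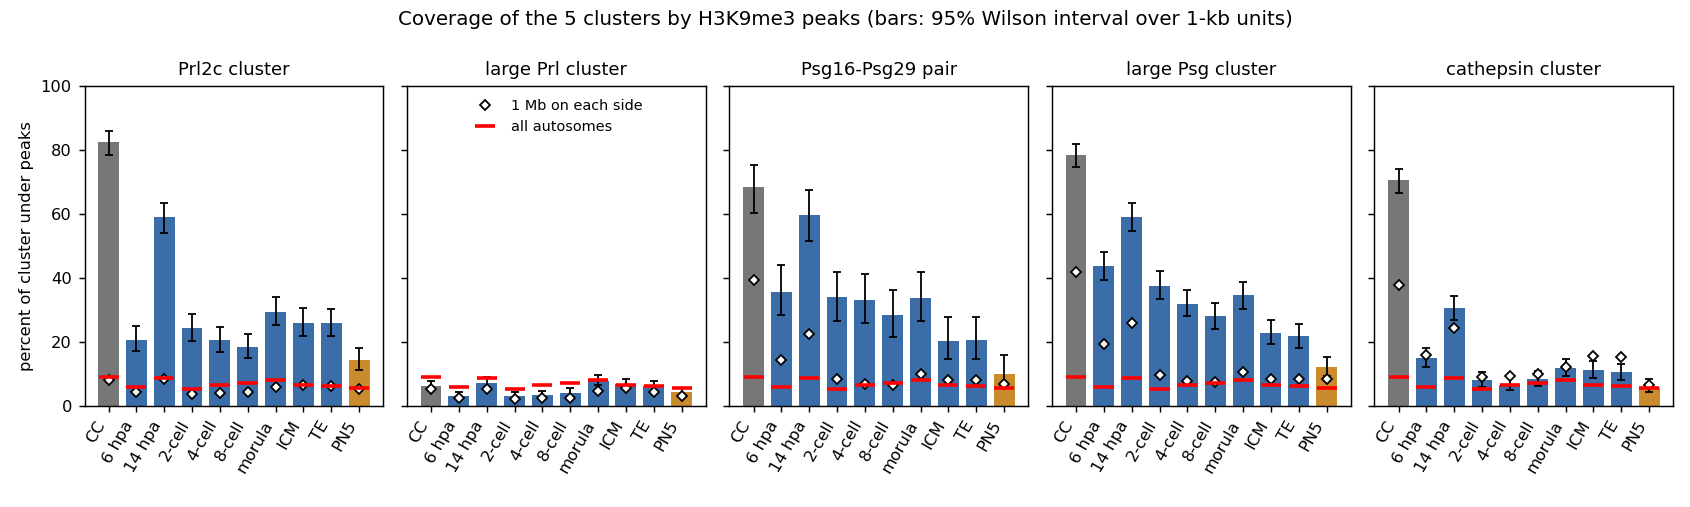
Percent of each of the 5 clusters under H3K9me3 peaks by list (grey bar CC, blue bars SCNT embryos, orange bar PN5), with 95% Wilson intervals counting each 1 kb as 1 unit, diamonds for the 1 Mb on each side and red dashes for all autosomes. In CC the bars stand between 68.5% and 82.6% for all clusters but the large Prl cluster, at 6.11%.

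At 6 hpa the Prl2c cluster had 20.6% coverage (17 to 24.9), a difference from CC of -61.9 points (-67.4 to -56.5). The cathepsin cluster had 15% (12.2 to 18.1), a difference of -55.6 points (-60.3 to -50.8). For the large Psg cluster the value was 43.7% (39.3 to 48.2), a difference of -34.8 points (-40.6 to -29). The difference was therefore smaller in the large Psg cluster than in the Prl2c and cathepsin clusters, beyond the counting intervals. Over all autosomes coverage was 8.86% in CC and 5.77% at 6 hpa. In lists trimmed to equal covered length the difference in the cathepsin cluster was -21.1 points and in the large Psg cluster -23.5 points, so the order of these 2 clusters turned. In the large Prl cluster the difference of -3.11 points turned to 0.0519.

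The bases covered in CC were followed into the later lists. Over the 5 clusters together, 32.5% of the CC bases (30 to 35.2) lay in peaks again at 6 hpa, 58% (55.2 to 60.6) at 14 hpa, 27.8% in 2-cell embryos and 13.6% in PN5. At 6 hpa the share was 51.1% in the large Psg cluster, 24.9% in the Prl2c cluster and 19.4% in the cathepsin cluster, beside 37.9% over all autosomes. Hence the large Psg cluster lay above, and the other 2 below, the autosomal share. These shares were not split by base composition. In the opposite direction, 91.7%, 99.8% and 91.5% of the bases covered at 6 hpa in these 3 clusters had been covered in CC, beside 58.2% over all autosomes. CC peaks themselves covered 70.6% to 82.6% of these 3 clusters, against 8.86% of the autosomes, so a high share is fixed in part by the extent of CC peaks.

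Peaks also differed in extent. In the Prl2c cluster the longest merged peak measured 88.5 kb in CC, 6.46 kb at 6 hpa and 35 kb at 14 hpa. The large Psg cluster had 63 merged peaks of up to 35.7 kb in CC and 115 of up to 9.8 kb at 6 hpa, so its coverage at 6 hpa was made of more and shorter pieces. The median fold enrichment of its peaks over input was 2.84 in CC and 2.98 at 6 hpa, beside 2.71 and 2.73 over the autosomes. Fold is the authors' ratio within a list, and peaks of the cluster were close to ordinary in this measure.

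In the large Psg cluster every gene had some H3K9me3 peak in 8 or more lists. Psg18, the gene at the proximal edge, had the highest mean over the lists. Its body was wholly under peaks in CC (100%), with 93.3% at 6 hpa, 76.7% at 14 hpa, then 75.2%, 58.1% and 73.7% in 2-, 4- and 8-cell embryos, 66.6% in the morula, and 26.1%, 32.3% and 34.4% in ICM, TE and PN5. Psg20 and Psg21 followed, with 92.8% and 91.9% in CC, 79% and 92.2% at 6 hpa, and 50.5% and 66.8% in the morula. In ICM and TE these 2 genes had between 34.4% and 42.4%, the highest values among members in those lists, and they differed in PN5, with 30.2% for Psg20 and 0 for Psg21.

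Coverage in CC was graded along the distal end of the cluster. Psg22 had 82.1%, its neighbour Psg19 44.4% and the outermost gene Psg17 16.7%, or 29%, 13.4% and 0 in lists of equal covered length. The 500 kb before the cluster were covered to 88.3% in CC (85.1 to 90.7), and the 500 kb after it to 4.23% (2.76 to 6.34). Psg17 and Psg19 thus lie at the edge of the CC domain, while the proximal edge of the cluster lies within it.

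**Figure D3:**
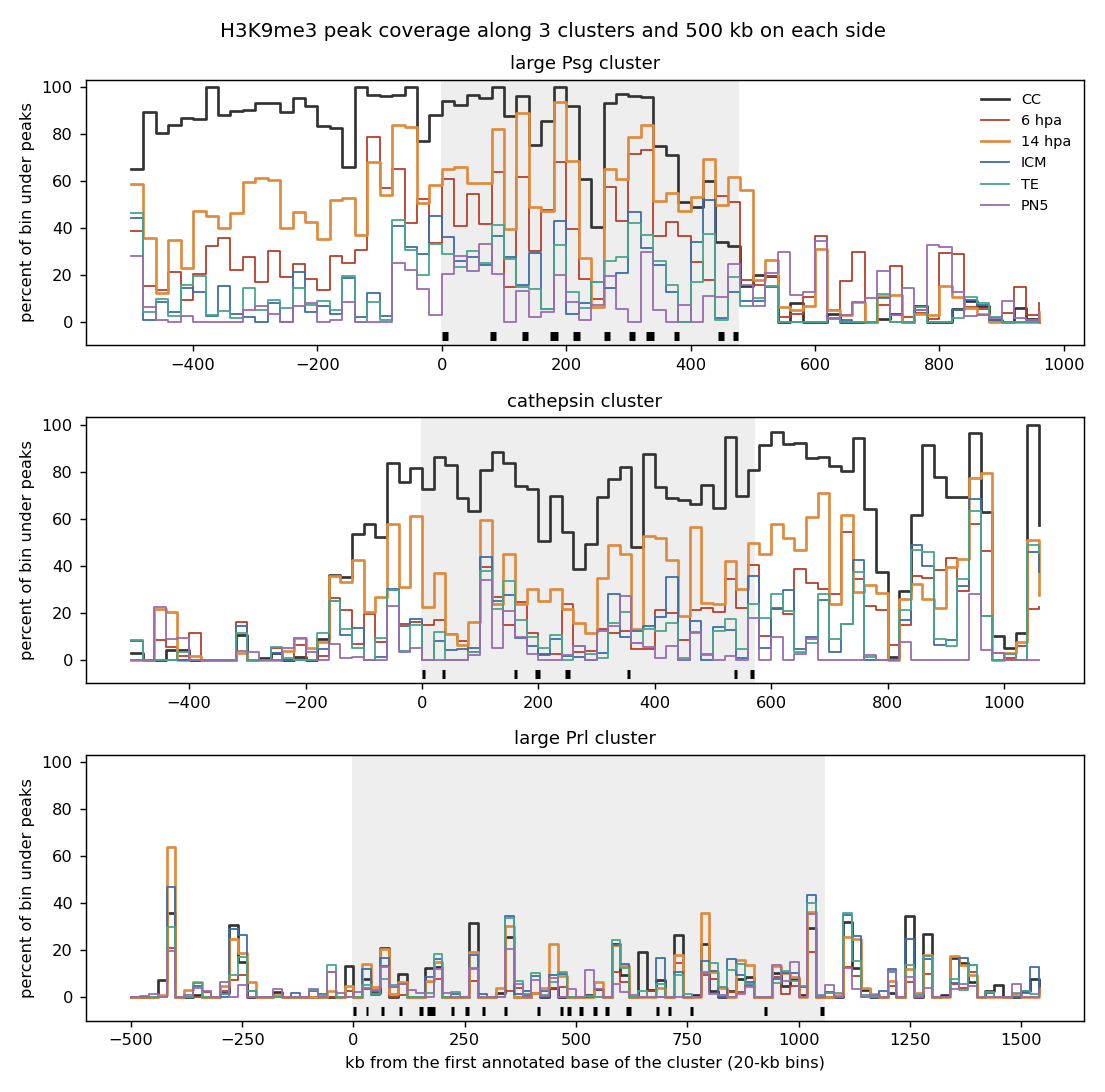
Percent of each 20-kb bin under peaks along the large Psg, cathepsin and large Prl clusters (grey background; black marks are member genes) with 500 kb on each side, for 6 of the lists. The CC line stays high before the large Psg cluster and steps down across its last genes, fills the cathepsin cluster and what follows it, and stays low across the large Prl cluster.

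Psg17, whose protein is known to bind the tetraspanin CD9, differed in its order of lists from most of the cluster. Its body had 16.7% coverage in CC, against 47% at 6 hpa, 66% at 14 hpa, 85.1% in 2-cell embryos and 82.5% in 4-cell embryos, then 58.4% in 8-cell embryos and 40.6% in the morula. ICM had 10.3%, TE 19.5% and PN5 8.53%. Thus the highest values were those of cleaving SCNT embryos, above both the donor cell and the fertilized zygote. Psg19 had 44.4%, 68%, 69.8% and 73.1% from CC to the 2-cell stage, 47.7% and 52.8% in 4- and 8-cell embryos, 22.3% in the morula, and 1.99%, 0 and 12.1% in ICM, TE and PN5. Psg22 had 82.1% in CC and 67.2% to 76.7% from 6 hpa to the 4-cell stage, and then 12.8% in 8-cell embryos, 15.1% in the morula, and 0 to 2% in ICM, TE and PN5.

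Psg17 and Psg19 were the 2 members that stood at least 20 points above CC at 6 hpa (5.27% of all genes did) and also at 14 hpa (1.93%). In both cases 2 of 46 is 4.35%, a share near the background. Members at least 20 points below CC numbered 14 at 6 hpa, beside 4.67% of all genes, and 12 at 14 hpa, beside 3.33%. In both lists they comprised all 8 cathepsins, Prl2c2, Prl2c3 and Psg29, to which 6 hpa added Psg23, Psg25 and Psg27 and 14 hpa added Psg18. In lists of equal covered length the difference of Psg19 between 14 hpa and CC was -13.4 points rather than 25.3, and 4 members in place of 2 stood above CC at 6 hpa.

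The promoters of the Psg genes are alike in sequence, which is why those of Psg17 and Psg18, at the opposite ends of the cluster, are shown. Over the 300 bases from 250 before to 50 after the RefSeq start (GRCm38.p6, minus strand), Psg17 and Psg18 were 86.7% identical. Psg17 had no peak in this window in CC, ICM, TE and PN5 and was wholly under peaks in the 6 lists from 6 hpa to the morula. Psg18 was wholly under peaks in CC, at 6 and 14 hpa, in 4-cell embryos and in the morula, to 88.3% in 2-cell embryos, 44% in 8-cell embryos and 83% in ICM, and had no peak there in TE and PN5. Capitals mark a match to TGANTCA, the AP-1 motif, on either strand, of which Psg17 has none.
Psg17 promoter, chr7:18821542-18821841: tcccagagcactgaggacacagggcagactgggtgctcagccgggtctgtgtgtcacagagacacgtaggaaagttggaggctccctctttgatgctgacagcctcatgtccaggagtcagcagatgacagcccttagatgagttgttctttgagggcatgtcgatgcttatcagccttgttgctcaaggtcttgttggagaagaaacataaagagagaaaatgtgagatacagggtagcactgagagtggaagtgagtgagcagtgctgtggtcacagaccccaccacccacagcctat
Psg18 promoter, chr7:18354958-18355257: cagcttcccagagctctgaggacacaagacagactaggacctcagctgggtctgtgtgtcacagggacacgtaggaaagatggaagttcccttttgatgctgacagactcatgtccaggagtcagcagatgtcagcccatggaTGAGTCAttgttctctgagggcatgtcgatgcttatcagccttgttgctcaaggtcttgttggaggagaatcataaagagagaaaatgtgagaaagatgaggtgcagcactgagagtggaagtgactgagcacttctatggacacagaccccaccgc

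Some intronic stretches were covered in all 10 lists, in PN5 and both blastocyst lineages as well as in CC. The central 120 bases of 3 such stretches in the large Psg cluster and of 1 in Prl2c3 are given, on the genes' strand (minus), as sequence under peaks in every list, and were chosen after their values were seen. The Psg stretches were 180 bases long in Psg18, 324 in Psg25 and 521 in Psg20, and 25, 0 and 0 of the bases shown were soft-masked as repeats. In Prl2c3 the stretch was 338 bases long and 111 of the bases shown were masked.
Psg18, chr7:18349705-18349824: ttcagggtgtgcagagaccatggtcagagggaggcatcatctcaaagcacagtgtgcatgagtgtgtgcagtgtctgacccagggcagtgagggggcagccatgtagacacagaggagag
Psg25, chr7:18527788-18527907: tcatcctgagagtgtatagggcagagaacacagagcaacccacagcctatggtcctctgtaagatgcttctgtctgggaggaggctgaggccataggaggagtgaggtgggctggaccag
Psg20, chr7:18675041-18675160: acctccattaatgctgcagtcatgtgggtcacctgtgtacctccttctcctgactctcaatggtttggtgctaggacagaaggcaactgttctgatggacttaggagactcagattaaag
Prl2c3, chr13:12799176-12799295: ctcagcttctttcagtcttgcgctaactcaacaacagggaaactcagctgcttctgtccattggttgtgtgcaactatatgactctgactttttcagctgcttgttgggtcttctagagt

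The peak of highest fold in the large Psg cluster lay between genes, 16.1 kb after Psg26 and 19.2 kb before Psg25. Its fold was 8.9 in 4-cell embryos, 7.02 in 8-cell embryos, 5.08 in PN5 and 2.73 to 4.45 in the other lists. Its whole length of 273 bases was soft-masked, and the central 120 bases repeat a 6-base unit, which is why they are shown.
Peak between Psg26 and Psg25, chr7:18500316-18500435: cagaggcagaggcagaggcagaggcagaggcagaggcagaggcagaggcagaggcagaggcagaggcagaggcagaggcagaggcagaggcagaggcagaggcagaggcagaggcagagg

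The other Psg members gave similar series at other levels. Psg29 had coverage of 100% (CC), 56.7% (6 hpa), 74% (14 hpa) and 6.94% (PN5), and Psg16, the longest member at 59411 bases, 39.8%, 21.2%, 45.8% and 12%. Psg28, Psg26, Psg25, Psg27 and Psg23, which make up the middle of the large cluster, had between 86.7% and 100% in CC, between 59.1% and 87.5% at 6 hpa and between 42.1% and 58.9% in the morula. They were named after their values were seen. Up to 27.6% of the 75-base words of these genes recur in the cluster (Psg23), and 31.5% of those of Psg21. A read of 75 bases, the shortest that the authors kept, has no unique place there on its own, so the coverage of close copies is uncertain.

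Gene bodies and the sequence between genes were compared within the large Psg cluster. At 6 hpa 74.2% of gene-body bases (65.7 to 81.8) and 34.5% of the bases between genes were covered, and in 2-cell embryos 65.8% and 29.1%. In CC the values were 84.5% and 76.7%. However, the gene bodies are rich in G and C, with a median of 47.2% over the 11 genes, and 86.2% of their 1-kb windows reach 45% GC, against 30.4% of the windows between genes. Among windows of at least 45% GC, 78.7% were marked in gene bodies (69.4 to 85.8) and 70.5% between genes (61.5 to 78.2) at 6 hpa, a window being marked when peaks cover at least 50% of it. Within this GC class the contrast was thus within the counting intervals. On the autosomes 11.6% of such windows were marked at 6 hpa.

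ICM and TE showed the opposite order in the same GC class. Repeats were not matched. Soft-masked bases made up 10.2% (Psg18) to 32.3% (Psg20) of the gene bodies, against 47.8% of the whole cluster. In ICM 14.9% of windows in gene bodies (9.08 to 23.5) and 37.5% between genes (29.1 to 46.7) were marked, and in TE 18.1% (11.6 to 27.1) and 37.5%. The intervals do not overlap in either list. In the morula the values were 47.9% and 53.6%. Among windows below 40% GC, none of which lay in the Psg genes, 70.2% were marked in CC, 3.23% at 6 hpa and 27.4% at 14 hpa.

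**Figure D4:**
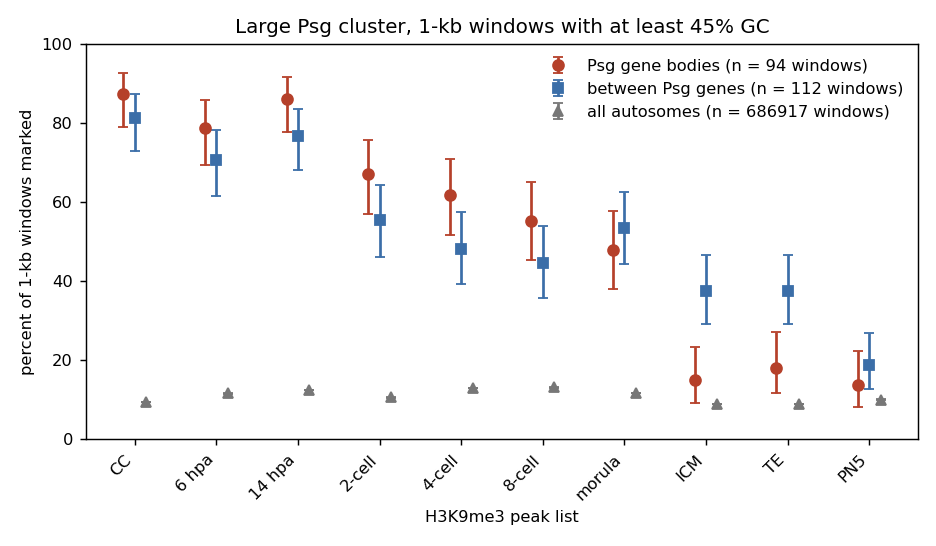
Percent of 1-kb windows with at least 45% GC that were marked in Psg gene bodies (94 windows), between Psg genes (112 windows) and on all autosomes, by list, with 95% Wilson intervals. Gene bodies lie above the sequence between genes from CC to the 8-cell stage and below it in ICM (14.9% against 37.5%) and TE (18.1% against 37.5%).

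The 8 cathepsins, proteases of which Ctsq is used as a marker of sinusoidal trophoblast giant cells, had most of their coverage in the donor cell. In CC they ranged from 46.9% (Cts3) to 83.8% (Ctsm), with a median of 78.7%. At 6 hpa the median was 3% and the highest value 28.8% (Cts8), at 14 hpa 16.1% and 48.2% (Cts7). In lists of equal covered length, which keep the peaks of highest -log10 q, the difference between 6 hpa and CC turned from negative to 14.9 points for Ctsj, 26.7 for Cts8 and 3.19 for Cts7, the coverage of the cluster in CC was 34.1%, and of the 8 genes only Ctsq and Ctsm were covered in CC, at 66.2% and 83.8%. Every cathepsin was at 0 in the morula, and from the 2-cell stage to the blastocyst the highest value was 13.7% (Ctsq in 8-cell embryos).

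Cts7, which had the highest mean, had 82.9% in CC, only 3.19% at 6 hpa, 48.2% again at 14 hpa, 0 from the 2-cell stage to TE, and 31.5% in PN5. In lists of equal covered length it had 0 in CC and 4.67% at 14 hpa, so that the difference between these lists turned as well. It was the only cathepsin with a peak in PN5. Ctsr had 77.4%, 13.2% and 39.6% in CC and at 6 and 14 hpa, and at most 3.64% afterwards. Ctsq had 80% in CC, 0 at 6 hpa and 14.7% at 14 hpa, then 5.83% in 4-cell embryos, 13.7% in 8-cell embryos and 6.38% in ICM. For Ctsj the values were 81.8%, 14.9% and 11.3% in CC and at 6 and 14 hpa and 0 in the 7 other lists. Cts6 had 70.4% in CC and 17.5% at 14 hpa, Cts8 69.5% and 13.3%, and Cts3, the lowest of the family, 46.9% and 0, with 11.2% in TE.

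The Ctsq promoter is printed because it was wholly under peaks in 4-cell embryos, when the body of Ctsq had 5.83%. In its 300-base RefSeq window coverage was 100% in CC, 0 at 6 hpa, 73.3% at 14 hpa, 54.3% in 2-cell embryos, 100% in 4-cell embryos and 0 from the 8-cell stage on and in PN5.
Ctsq promoter, chr13:61040548-61040847: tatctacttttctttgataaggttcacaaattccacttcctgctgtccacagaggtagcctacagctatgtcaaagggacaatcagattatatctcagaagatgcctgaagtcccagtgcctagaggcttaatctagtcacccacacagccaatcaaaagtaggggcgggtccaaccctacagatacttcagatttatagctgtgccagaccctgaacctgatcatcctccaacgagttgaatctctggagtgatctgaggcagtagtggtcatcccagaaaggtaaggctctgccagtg

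The cathepsin cluster stood above its surroundings in CC and near them at 6 hpa and in PN5. The 1 Mb on each side had 37.8%, 15.9% and 6.32% in CC, at 6 hpa and in PN5, against 70.6%, 15% and 5.94% in the cluster. The sides differed in CC, with 20.4% over the 500 kb before the cluster and 66.6% over the 500 kb after it. Most windows of the cluster, 64.9%, are below 40% GC. Of these 60.8% were marked in CC (55.7 to 65.6) and 2.97% at 6 hpa, against 6.54% and 0.643% of such windows on the autosomes. Of its 26 windows with at least 45% GC, 100% were marked in CC and 73.1% at 6 hpa (53.9 to 86.3), against 9.48% and 11.6% on the autosomes. Windows rich in G and C were thus marked at 6 hpa far more often than those poor in them.

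The 3 genes of the Prl2c cluster encode proliferins, known as angiogenic hormones of trophoblast giant cells. They were the prolactins with the highest coverage in CC. Prl2c1 lies in the large Prl cluster instead and had no peak over its body in any list. Prl2c2 had 92.2% in CC, 5.96% at 6 hpa, 68.9% at 14 hpa, 6.33% in 2-cell embryos, 21.5% in the morula and 2.96% in PN5. Prl2c3 had 83.2%, 24.1%, 59.3%, 16.5%, 22.6% and 19.4% in the same lists. In both genes the values at 14 hpa stood far above those at 6 hpa and in 2-cell embryos, but in lists of equal covered length only in Prl2c2 (31.1%, 0 and 6.33%), while Prl2c3 had 0, 24.1% and 16.5%. Prl2c5 had 26.4% in CC, 8.37% at 14 hpa and less in the rest.

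These 3 genes are near copies. Of their 75-base words 65.7% (Prl2c3), 68.2% (Prl2c2) and 16.4% (Prl2c5) recur within the cluster, against a median of 0 in the large Prl cluster, and the promoters of Prl2c3 and Prl2c5 are 95.7% identical. In CC and at 14 hpa the coverage of the 3 genes ran in the same order as this repetition. In every other list Prl2c3 stood above Prl2c2, with 24.1% against 5.96% at 6 hpa. The part of the repetition in these values was not tested. Between the genes, where the cluster has most of its length, coverage was 83.7% in CC and 21.3% at 6 hpa.

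The large Prl cluster was the exception in the donor cell. Of its 22 genes 16 had no peak in any of the 10 lists, beside 16.3% of all genes. They include Prl3d1, Prl3d2 and Prl3d3, the genes of placental lactogen I, Prl3b1, that of placental lactogen II, Prl4a1, whose product is known to bind uterine natural killer cells, and Prl8a2, a decidual prolactin. Prl7d1, the anti-angiogenic proliferin-related protein, had 1.48% in PN5 and 0 in the rest. Only Prl3c1, with up to 18.3% (14 hpa), and Prl3a1, with up to 14.4% (CC), had peaks in 7 lists each, and the other 4 genes with a peak had it in 1 list.

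The sequence between the genes of this cluster had higher coverage than the genes, 6.92% against 2.09% in CC and 9.11% against 1.04% in the morula. Below 40% GC lay 91.1% of the windows in gene bodies and 70.7% of those between genes. In this class 0.61% (0.108 to 3.37) and 2.9% (1.84 to 4.54) were marked in CC. In the morula the shares were 0 (0 to 2.29) and 2.74% (1.72 to 4.34). In this class the intervals thus overlapped. In each of the 10 lists gene bodies stayed at or below 2.09%. Its genes have a median GC of 34.4%, and 74.2% of its windows are below 40% GC. Of these 2.42% were marked in CC (1.55 to 3.75), against 6.54% on the autosomes and 60.8% in the cathepsin cluster. The other windows did not lie below the autosomes. Of the cluster's 62 windows with at least 45% GC, 25.8% were marked in CC (16.6 to 37.9) and 43.5% in the morula (31.9 to 55.9). On the autosomes the shares of such windows were 9.48% and 11.8%. Between 40% and 45% GC, 12.3% were marked in CC (8.55 to 17.4), against 9.16% on the autosomes.

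The strongest peak of the cluster lay 111 kb after Prl2c1 and 46.6 kb before Prl4a1, in sequence that is 99.7% soft-masked. A peak overlapped it in every list, with a fold of 7.6 in TE, 7.41 in ICM and 5.68 in the morula and 2.84 to 4.53 in the other 7. Its fold was thus highest in the blastocyst lists.

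The promoter of Prl3d1, printed as that of a gene with no H3K9me3 peak over its body in any list, holds a match to the AP-1 motif, and the same motif is found in Prl3d2 and Prl3d3, whose promoters are 92.3% and 91.3% identical to it.
Prl3d1 promoter, chr13:27093939-27094238: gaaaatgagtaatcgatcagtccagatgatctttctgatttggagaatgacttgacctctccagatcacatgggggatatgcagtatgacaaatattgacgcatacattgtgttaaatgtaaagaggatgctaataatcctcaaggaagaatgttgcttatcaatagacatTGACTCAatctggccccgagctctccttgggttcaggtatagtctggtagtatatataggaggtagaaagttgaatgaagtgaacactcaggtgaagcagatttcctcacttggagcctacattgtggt

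RefSeq gave promoters for 39 of the 46 members. TGANTCA, searched on both strands, was found in 9 of 21 Prl, 3 of 10 Psg and 0 of 8 cathepsin promoters, and in 7.81% of all 32851 promoters. AGATAA, a motif of GATA factors, was found in 9 of 21 Prl, 1 of 10 Psg and 0 of 8 cathepsin promoters and in 11.2% of all promoters. Copies share sequence, so these counts are not independent. Base composition was not matched to that of all promoters. The windows had 34% to 44.7% GC in Prl, 48% to 52% in Psg and 42.3% to 50% in cathepsin genes.

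At 14 hpa coverage stood between that of CC and 6 hpa in the Prl2c (58.9%, 54 to 63.6), large Psg (59.1%, 54.6 to 63.4) and cathepsin clusters (30.4%, 26.7 to 34.2) and in the Psg16 and Psg29 pair (59.7%, 51.6 to 67.6). The difference from CC was -23.6 points (-29.7 to -17.6) in the Prl2c cluster, -19.4 (-25.1 to -13.6) in the large Psg cluster and -40.2 (-45.5 to -34.8) in the cathepsin cluster. In the pair it was -8.8 (-19.9 to 2.32) and in the large Prl cluster 0.944 (-1.17 to 3.06), both within the counting error. In lists trimmed to equal covered length 14 hpa lay below 6 hpa in the large Psg cluster (36.8% against 42.3%) and the cathepsin cluster (9.93% against 13%), and the cathepsin difference between 14 hpa and CC was -24.1 points.

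Late 1-cell embryos of the 2 origins were then set side by side. In PN5 the large Psg cluster was covered to 12% (9.36 to 15.2) against 59.1% in SCNT embryos at 14 hpa, a difference of 47 points (41.7 to 52.3). The difference was 49.9 points (40.5 to 59.3) in the Psg16 and Psg29 pair, 44.6 (38.7 to 50.5) in the Prl2c cluster, 24.5 (20.2 to 28.7) in the cathepsin cluster and 2.86 (0.898 to 4.82) in the large Prl cluster. In each cluster coverage was higher at 14 hpa. In lists trimmed to equal length these differences were 25.4, 25.8, 30.9, 4.36 and 1.52 points.

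Of the 46 members 17 were at least 20 points higher at 14 hpa than in PN5, beside 4.71% of all genes, and 0 were lower, beside 4.96%. In lists of equal covered length 8 were higher and 1 was lower. The 17 were all 13 Psg genes, Prl2c2 and Prl2c3, Ctsr and Ctsm. Window by window the large Psg cluster had 229 windows marked at 14 hpa only and 3 in PN5 only, and the Prl2c cluster 180 and 1. Such windows were not counted over all autosomes or in lists of equal covered length, so these counts have no background. The Jaccard index of 14 hpa and PN5 is bases in both lists divided by bases in at least 1. It was 0.186 in the large Psg cluster and 0.23 in the Prl2c cluster, beside 0.228 over all autosomes. It was 0.16 in the Psg16 and Psg29 pair, 0.142 in the cathepsin cluster and 0.288 in the large Prl cluster. Over all autosomes coverage was 8.63% and 5.39%, so the direction was that of the genome as a whole and the size was greater in 4 of the 5 clusters. Trimming reversed the direction for Psg29, Psg27, Psg23, Psg19 and Prl2c3.

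The families are used by trophoblast, so ICM was compared with TE in SCNT blastocysts. Coverage of the clusters did not differ beyond counting error. The differences of ICM minus TE were 0.123 points (-5.94 to 6.18) in the Prl2c cluster, 0.696 (-1.38 to 2.77) in the large Prl cluster, -0.193 (-9.58 to 9.2) in the Psg16 and Psg29 pair, 1.09 (-4.19 to 6.37) in the large Psg cluster and 0.74 (-2.86 to 4.34) in the cathepsin cluster. Over the autosomes ICM had 6.43% and TE 6.06%. The intervals leave room for differences of up to 9.2 points in the pair and 6.37 in the large Psg cluster.

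**Figure D5:**
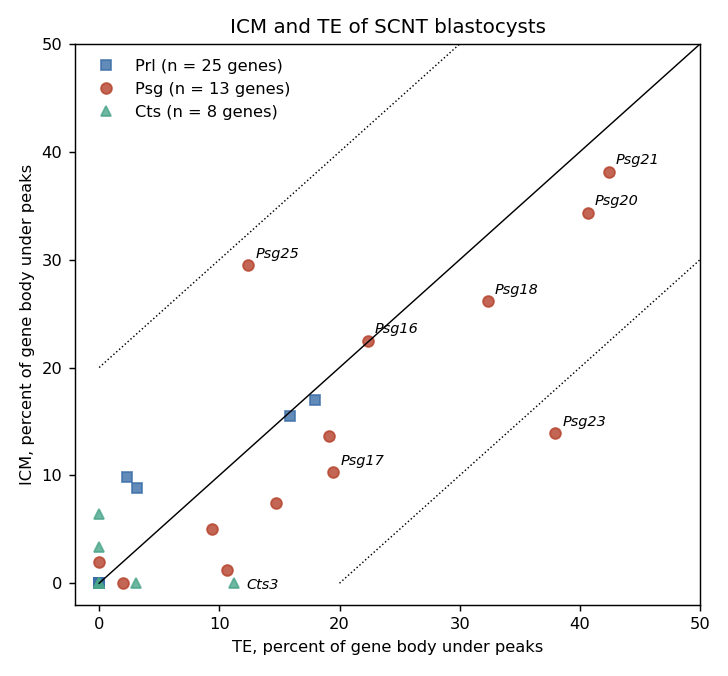
Percent of gene body under peaks in ICM against TE for the 46 members, with the line of equality and dotted lines at a difference of 20 points. Psg23 (13.9% in ICM, 38% in TE) is the only point beyond a dotted line.

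Of single genes, 0 members were at least 20 points higher in ICM than in TE, beside 0.745% of all genes, and 1 was lower, beside 0.509%. It was Psg23, with 13.9% in ICM and 38% in TE. With only peaks of -log10 q of at least 2 its difference was 3.07 points in favour of ICM, and in lists of equal covered length 1.69. The next in size was Psg25, with 29.5% in ICM and 12.4% in TE, named here after its values were seen. The marked positions overlapped as on the autosomes, with a Jaccard index, bases in both lists divided by bases in at least 1, of 0.479 in the large Psg cluster, 0.408 in the cathepsin cluster, 0.434 in the Psg16 and Psg29 pair, 0.522 in the large Prl cluster and 0.6 in the Prl2c cluster, beside 0.503.

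At promoters, taken as 1 kb to each side of the annotated 5′ end, 4 members were at least 20 points higher in ICM, beside 1.07% of all genes, and 1 was lower, beside 1.13%. The 4 were Psg18 (50% in ICM, 23.9% in TE), Psg26 (55.7% and 0), Prl2c3 (50.7% and 16.3%) and Ctsq (26.6% and 0), and the 1 was Cts3 (0 and 31.4%). Gene bodies of the same genes differed by 9.44 points or less, except for Cts3 with 11.2. Those of Psg18, Psg26 and Prl2c3 were lower in ICM than in TE (-6.2, -9.44 and -1 points), against the direction of their promoters. Those of Ctsq (6.38) and Cts3 (-11.2) had the direction of their promoters.

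Relatives and neighbours were read in the same way. Prolactin itself, Prl, which lies before the large Prl cluster, had a peak in PN5 alone (5.17%), and its receptor gene Prlr had at most 1.21%. Of 14 other genes named as cathepsins 0 were covered in any list, beside 0.788% (TE) to 4.11% (CC) of all genes. A count of 0 of 14 is near that background. In CC their highest value was 17.6% (Ctse). The 14 genes were thus like most genes in CC, and did not have the coverage of the placental cathepsins. The 4 placental genes beside Ctsj, namely Tpbpa and Tpbpb, of which Tpbpa marks spongiotrophoblast, and Ctla2a and Ctla2b, had 33.6% to 72.6% in CC, 0 to 19% at 6 hpa and 0 in ICM, TE and PN5. At 14 hpa Tpbpa had 60.3%, Ctla2a 69.4% and Ctla2b 0.

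Of 15 Ceacam genes, the closest relatives of Psg, 6 were covered in CC (4.11% of all genes), 1 at 6 hpa (3.29%) and 5 at 14 hpa (2.9%). The 6 were Ceacam3, Ceacam5, Ceacam11, Ceacam12, Ceacam13 and Ceacam14, at 83.1% to 100%. Ceacam3 lies within the Psg16 and Psg29 pair, and the other 5 lie between this pair and the large Psg cluster. Ceacam3 had 79.3% at 6 hpa and 68.3% in 2-cell embryos, and the other 5 had 21.5% to 48.6% at 6 hpa. The Psg genes had 21.2% (Psg16) to 93.3% at 6 hpa, with a median of 68% and the next lowest value at 47% (Psg17). Ceacam1, Ceacam9, Ceacam10, Ceacam15, Ceacam16 and Ceacam19 were at 0 in CC. No Psg gene was without a peak in CC, where Psg17 was the lowest at 16.7%.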

How the data were processed

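H3K9me3 was profiled by ULI-NChIP-seq in 74 libraries (41 precipitated, 33 input) of 10 groups assigned from the labels. The authors trimmed reads with Cutadapt 1.16 per the labels, aligned them to mm10 with BWA, merged replicates, removed duplicates and drew equal numbers of reads with Picard, and called broad peaks over input with MACS2, whose threshold is not given in the sources used here. Each deposited list gives a peak's position, its fold enrichment over input (a ratio) and its −log10 q-value. Read depth per library was not analysed here. Peaks of a list were merged and intersected with GENCODE vM21 genes in Python 3.11.15 with NumPy 2.4.6, and figures were drawn with matplotlib 3.10.9. Wilson 95% intervals (SciPy 1.17.1) cover counting error only. Intervals of differences between 2 lists are 95% normal approximations with each 1 kb as 1 unit. They treat the 2 lists as independent, although both lists score the same kilobases. With 1 pooled list per group no test, replicate error or paired comparison could be made. The scripts were tested on simulated data. Promoter sequences came from RefSeq (GRCm38.p6). Values were given for the 3 members of highest and the 3 of lowest mean coverage per family, members that differed between ICM and TE by at least 20 points, a fixed list of members with known placental roles, and fixed lists of relatives. Members and lists were chosen with earlier results of these data known. Alternatives concerned the peak threshold, list length, merging distance, promoters, the coverage and difference limits, cluster width and the background genes.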

Additional observations from a re-analysis of the deposited data

How the results depend on the processing

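No paired analysis was possible because each group has 1 pooled list, which also leaves no replicate to omit. Each list was trimmed to the 122.674 Mb of the shortest, by -log10 q. The difference between 6 hpa and CC became -50.1 points (Prl2c cluster), 0.0519 (large Prl, reversed), -15.5 (Psg16 and Psg29), -23.5 (large Psg) and -21.1 (cathepsins), that between 14 hpa and CC -29 (large Psg) and -24.1 (cathepsins), and that between 14 hpa and PN5 30.9 (Prl2c), 25.8 (Psg16 and Psg29), 25.4 (large Psg) and 4.36 (cathepsins). The 5 clusters together were then covered to 33.6% (CC), 19.6% (14 hpa), 10.2% (4-cell), 9.61% (8-cell), 11% (morula), 11.8% (ICM) and 11.2% (TE), and 36.8% (6 hpa), 46.2% (14 hpa), 34% (2-cell) and 16.4% (PN5) of CC bases were kept. Covered members numbered 6 (14 hpa), 3 (4-cell), 4 (8-cell) and 2 (morula). Members above CC were 4 and below it 8 at 6 hpa, 1 was above CC at 14 hpa, and 8 were above and 1 below PN5. Single genes reversed at 6 hpa against CC (Ctsj 14.9, Cts8 26.7, Cts7 3.19), at 14 hpa against CC (Psg19 -13.4, Cts7 4.67), at 14 hpa against PN5 (Psg29 -0.635, Psg27 -9.65, Psg23 -17.4, Psg19 -8.53, Prl2c3 -19.4) and in ICM against TE (Psg23 1.69).

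Under a -log10 q minimum of 2, the cathepsin difference between 14 hpa and PN5 was 19.7, the 5 clusters were covered to 15% (6 hpa), 28.9% (14 hpa), 10.2% (4-cell), 8.33% (8-cell), 15% (morula), 11.9% (TE) and 4.87% (PN5), 29.2% (6 hpa), 54.4% (14 hpa) and 9.57% (PN5) of CC bases were kept, 3, 2 and 3 members were covered at the 4-cell, 8-cell and morula stages, Psg23 reversed to 3.07, and 0 members were lower in ICM. Merging peaks within 1000 bases gave cathepsin differences from CC of -64.4 (6 hpa) and -47.5 (14 hpa), coverage of 52.8%, 20.1%, 35.4%, 17.2%, 15.1%, 15.4%, 21.2%, 15.9% and 15.5% from CC to TE, kept shares of 35.3% (6 hpa) and 60.7% (14 hpa), and 1 (ICM) and 2 (TE) covered members. Widening clusters by 100 kb gave -50.7 and -16.7 for the Prl2c cluster at 6 and 14 hpa against CC and 27.2 for Psg16 and Psg29 against PN5.

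Calling genes covered at 20% gave 14, 13 and 14 members at the 4-cell, 8-cell and morula stages and 5 each in ICM, TE and PN5. Promoters in place of gene bodies gave 4 (ICM), 1 (TE) and 1 (PN5) covered members, 1 above CC at 6 hpa, 1 at 14 hpa, and 4 higher in ICM. At 40 points 0 members were above CC at 6 hpa, 1 was above and 6 were below at 14 hpa, and 0 were lower in ICM. Against the 12901 genes of the members' length range, the background share of covered genes was 3.3% in CC and 1.43% at 6 hpa. The cause of these changes was not tested. Pooling, the unknown peak threshold and repeated sequence limit what single genes show.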
